A study of Mus musculus with 6 samples.

Results

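The receptor channels described here are the ligand-gated ion channels that open when GABA, glutamate, glycine, serotonin or ATP binds to them. Their subunit genes were taken from all probe sets with exactly 1 gene symbol that begins with Gabra to Gabrr (GABA-A receptors), Gria1 to 4 (AMPA receptors), Grik1 to 5 (kainate receptors), Grin1 to 3 (NMDA receptors), Glra or Glrb (glycine receptors), Htr3 (the serotonin 5-HT3 receptors) or P2rx1 to 7 (the ATP-gated P2X receptors). This gave 44 genes, of 18193 genes named on the array, read by 91 probe sets, the groups of short oligonucleotides that measure 1 transcript. Other subunits of these families were not analysed here. RNA came from the stellate ganglia of male mice of the C57/Bl6 strain. The animals, 8 weeks earlier, had undergone either transverse aortic constriction (TAC), which narrows the aorta and so loads the left ventricle, or a sham operation, with 3 arrays in each group. Per the labels, each array carried RNA pooled from the left and right ganglion of 1 animal, so the replicates are animals, and the severity of the constriction was not analysed here. The arrays of a group carry the letters A, B and C in their titles, and 3 values of a group are always given in that order, as log2 intensities.

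Fast transmission in a sympathetic ganglion runs through nicotinic acetylcholine receptors, and the channels described here belong to other transmitters. GABA-A and glycine receptors are pentamers that conduct chloride, 5-HT3 receptors are pentamers that conduct cations, AMPA, kainate and NMDA receptors are tetramers gated by glutamate, and P2X receptors are trimers gated by ATP. Which subunits a cell makes sets the ligand affinity, the kinetics and the calcium permeability of the assembled channel. Principal neurons of sympathetic ganglia are known to respond to ATP, serotonin and GABA.

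Of the 44 genes, 13 had a probe set with a mean log2 intensity of at least 4 over the 6 arrays, the floor below which a value was treated as dim. They were all 4 AMPA receptor genes (Gria1, Gria2, Gria3 and Gria4), 3 of 5 kainate receptor genes (Grik2, Grik3 and Grik5), 1 of 5 glycine receptor genes (Glrb), both 5-HT3 genes (Htr3a and Htr3b) and 3 of 7 P2X genes (P2rx2, P2rx4 and P2rx7). None of the 15 GABA-A and none of the 6 NMDA receptor genes reached the floor. The members nearest to the floor were P2rx2 with a mean of 4.73 and P2rx7 with 4.94 above it, and Grin2d with 3.81 and P2rx3 with 3.70 below it. At a floor of 3 the count was 22, with 4 GABA-A and 2 NMDA receptor genes among them, and at a floor of 6 it was 11.

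Among the 31 dim genes, the GABA-A receptor subunits Gabra2, Gabra3, Gabra4, Gabra5, Gabra6, Gabrb1, Gabrb2, Gabrd, Gabre, Gabrg1, Gabrg3, Gabrp, Gabrq, Gabrr1 and Gabrr2 lay between 2.15 and 3.63 on single arrays. The glycine receptor alpha subunits Glra1, Glra2, Glra3 and Glra4, which carry the main ligand-binding face, lay between 2.35 and 2.99. The NMDA receptor subunits Grin2a, Grin2b, Grin2c, Grin2d, Grin3a and Grin3b lay between 2.14 and 3.84, and the kainate receptor subunits Grik1 and Grik4 between 2.67 and 3.18. Of the P2X genes P2rx1, P2rx3, P2rx5 and P2rx6, which lay between 2.17 and 4.22, P2rx3 was the 1 dim gene with any array above the floor. P2rx3, a subunit best known from sensory neurons, measured 4.22, 2.90 and 3.78 in sham and 3.66, 3.65 and 4.01 in TAC. A dim probe set does not show that a transcript is absent: 6 of the 13 genes above the floor (Gria3, Gria4, Grik2, Grik3, P2rx4 and P2rx7) had another probe set that was dim.

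**Figure D1:**
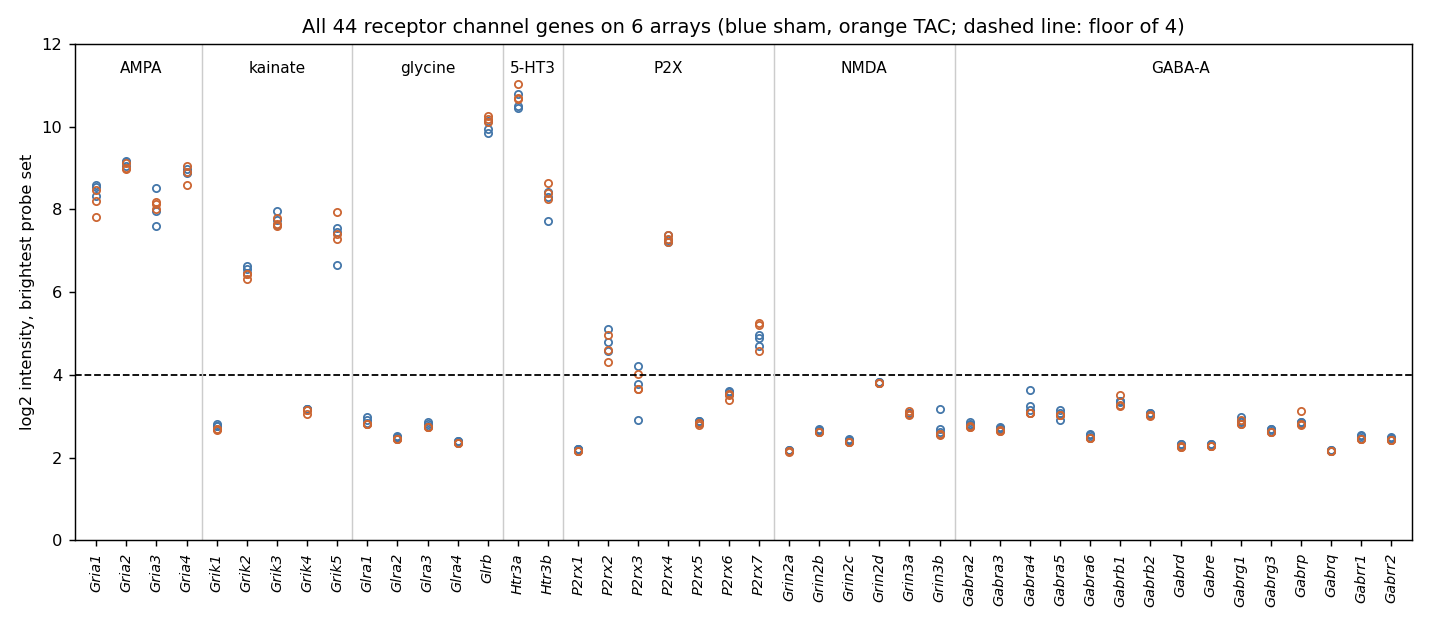
Log2 intensity (vertical axis) of the brightest probe set of each of the 44 genes (horizontal axis, grouped by receptor family) on the 3 sham arrays (blue) and the 3 TAC arrays (orange), with the floor of 4 dashed. The 4 AMPA receptor genes lie above the floor on every array and the 15 GABA-A genes below it on every array, while heights of different probe sets cannot be compared with each other.

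Several of these genes lie next to each other in the genome. In the RefSeq gene table (assembly GRCm38.p6, used for gene order only), 12 pairs of successive members had at most 3 other coding genes between them. In 3 pairs both genes were above the floor, in 8 both were dim, and in 1 pair (Glra1 dim, Gria1 above) they differed. The pairs above the floor were Gria2 with Glrb on chromosome 3, P2rx7 with P2rx4 on chromosome 5 and Htr3a with Htr3b on chromosome 9, all with 0 coding genes between. The dim pairs were all GABA-A genes, on chromosomes 4, 5, 7, 11 and X. All 15 GABA-A genes were dim, so the agreement within these pairs followed from the family and says nothing more about neighbours. All the pairs are a description only, since paralogs in a cluster, unlike Gria2 and Glrb, also share sequence.

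The RefSeq table of promoters (GRCm38.p6) held a window for 9 of the 13 genes above the floor and 23 of the 31 dim ones. Entries were missing for Gria1, Gria3, Htr3a, P2rx2, Gabrd, Glra1, Grik1, Grin2a, Grin2b, Grin3a, P2rx3 and P2rx5. The 250 bases before the start held a median of 16 CpG dinucleotides in the 9 genes (range 1 to 42) and of 8 in the 23 (range 0 to 36), against 17 over all genes of the array above the floor and 6 over those under it. The GC box GGGCGG, searched on both strands, occurred in 4 of the 9 (44.4%) and 12 of the 23 (52.2%), against 62.1% of the array genes above the floor and 34.2% of those under it, and 32.9% of all promoters in the table. The TATA motif TATAAA occurred in 0 of the 9 and 5 of the 23 (21.7%), against 5.94% of the array genes above the floor and 13% of those under it, and 13% of all promoters. Sequences are given for the adjacent pair Gria2 and Glrb, which were above the floor with 19 and 20 CpG, Htr3b, which was above it with 1, and Gabra6, which was dim with 2. The windows are chr3:80802836-80803085 for Gria2, chr3:80913661-80913910 for Glrb, chr9:48964991-48965240 for Htr3b and chr11:42321073-42321322 for Gabra6, all on the minus strand and printed 5′ to 3′ in the direction of the gene, with each CpG in capitals.
Gria2: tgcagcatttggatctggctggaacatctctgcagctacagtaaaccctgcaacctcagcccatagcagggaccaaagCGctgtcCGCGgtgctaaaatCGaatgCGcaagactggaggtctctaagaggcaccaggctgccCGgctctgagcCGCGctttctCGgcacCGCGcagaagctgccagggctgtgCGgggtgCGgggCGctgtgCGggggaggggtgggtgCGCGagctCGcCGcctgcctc
Glrb: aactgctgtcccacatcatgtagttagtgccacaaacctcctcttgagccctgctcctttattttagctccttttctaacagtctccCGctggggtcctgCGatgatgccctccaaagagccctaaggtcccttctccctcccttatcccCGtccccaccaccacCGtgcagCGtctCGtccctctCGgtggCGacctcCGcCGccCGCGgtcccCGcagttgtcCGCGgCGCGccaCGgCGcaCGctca
Htr3b: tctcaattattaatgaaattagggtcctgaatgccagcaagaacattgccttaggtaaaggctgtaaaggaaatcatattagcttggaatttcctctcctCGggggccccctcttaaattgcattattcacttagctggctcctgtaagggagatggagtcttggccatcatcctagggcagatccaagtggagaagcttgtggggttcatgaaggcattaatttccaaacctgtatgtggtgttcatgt
Gabra6: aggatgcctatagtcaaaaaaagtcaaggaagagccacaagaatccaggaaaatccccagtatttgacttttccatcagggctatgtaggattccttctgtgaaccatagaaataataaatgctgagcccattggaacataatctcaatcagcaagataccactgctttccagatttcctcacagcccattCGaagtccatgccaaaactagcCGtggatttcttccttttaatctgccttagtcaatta

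TAC and sham arrays were then compared for the 13 genes above the floor. Limma called 0 of them at an adjusted p under 0.05, over 17550 probe sets of which 0% were called. At an unadjusted p under 0.05 there were 0 higher and 0 lower, against 6.03% of all probe sets higher and 3.05% lower. The mean was higher after TAC for 7 genes and lower for 6, with a median log2 difference of 0.01 and a range of -0.33 to 0.33, and the median over all probe sets tested was 0.03. The groups did not overlap for 0 genes in the higher direction and for 1, Grik2, in the lower, against 9.02% and 8.85% of all probe sets. These counts do not show that the genes were unaltered: the 95% confidence intervals of the log2 differences reached 0.35 to each side at the median. In whole ganglia, fewer cells of a type and less RNA per cell cannot be told apart.

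**Figure D2:**
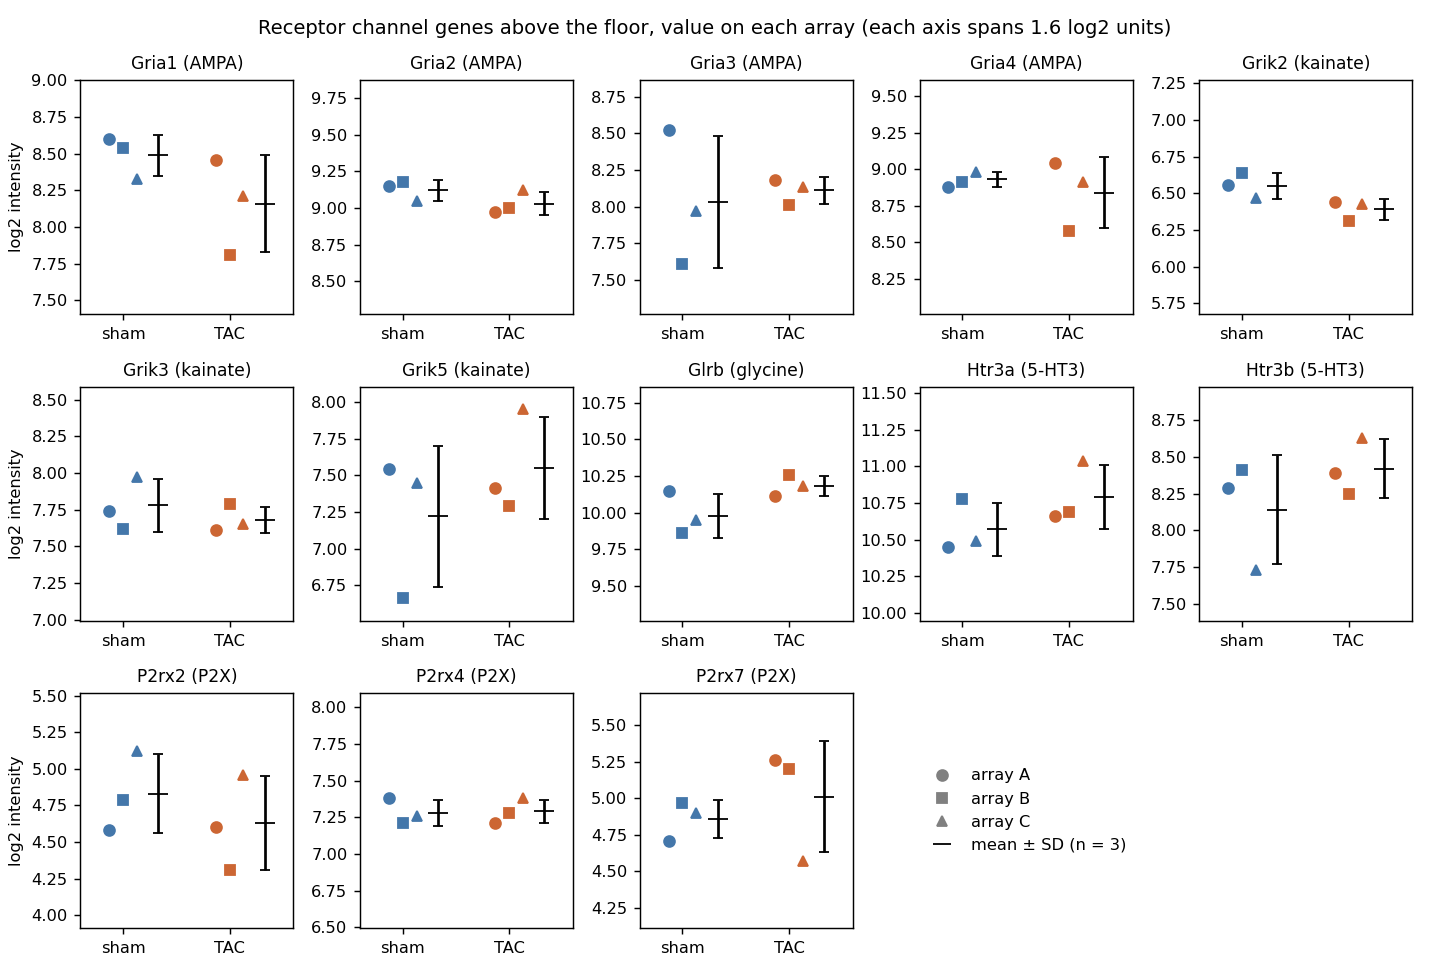
Log2 intensity (vertical axes, 1.6 units each) of the 13 genes above the floor on each array of the sham (blue) and TAC (orange) groups, with mean and SD (n = 3) in black and the array letters as symbols. Grik2 is the gene whose TAC arrays, at 6.31 to 6.44, all lie below its sham arrays, at 6.47 to 6.64.

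The AMPA receptor subunits, which carry most fast glutamate transmission in the brain, had 1 mean higher and 3 lower after TAC, with a median of -0.09. Gria1 (probe set 1448972_at) measured 8.60, 8.54 and 8.33 in sham and 8.46, 7.81 and 8.21 in TAC. TAC B was the low array, and TAC A lay within the sham range. The means were 8.49 ± 0.14 in sham and 8.16 ± 0.33 in TAC (SD, n = 3), a difference of -0.33 with a 95% confidence interval of -0.75 to 0.10 (limma adjusted p = 0.584). The second Gria1 probe set (1435239_at) measured 8.05, 8.28 and 8.02 in sham and 7.93, 7.07 and 7.86 in TAC. On it the TAC arrays lay below all sham arrays, TAC B again lowest, and the difference was -0.50 (limma adjusted p = 0.556). Without TAC B the Gria1 difference on the first probe set was -0.15, and without TAC A it was -0.48.

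TAC B also held the lowest summed level of the 9 satellite glia markers measured, a linear intensity of 19393, against 24864 and 26734 on the other TAC arrays and 26935 to 29102 on the sham arrays. All 9 of those markers were above the floor, and the low sum on TAC B rested largely on Fabp7, at 13.11 there and 13.73 to 14.08 elsewhere. TAC B was the lowest array for 5 of the 9 (Apoe, Fabp7, Foxd3, Kcnj10 and S100b), whereas Cdh19, Erbb3, Sostdc1 and Sox10 had their lowest array in sham, and Cdh19 on TAC B, at 11.21, lay above all sham arrays. Other sums were extreme on TAC B too. Mural cell markers summed to 2918 there and 1960 to 2251 elsewhere, with 5 of 8 above the floor. Of these, Acta2, Pdgfrb, Rgs5 and Tagln were highest on TAC B, while Cspg4 was lowest there, at 5.85. Endothelium markers summed to 197 there and 109 to 135 elsewhere. Only 3 of 8 were above the floor (Cldn5, Emcn and Esam), each highest on TAC B. The sum of the 5 myelinating Schwann markers measured was lowest there, at 8859, against 8969 to 9729 elsewhere. The 2 above the floor disagreed on TAC B: Mbp was lowest there, at 11.38, and Pmp22 highest, at 12.59. Sums of sympathetic neuron, macrophage and fibroblast markers had their extremes on other arrays. TAC B also had the lowest mean correlation with the other arrays, 0.984 against 0.987 to 0.990. The part of any of these cell types in the Gria1 values was not tested.

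Gria2, whose edited subunit keeps calcium out of the channel, was close between groups. It measured 9.15, 9.18 and 9.05 in sham and 8.97, 9.0 and 9.12 in TAC (1421970_a_at), a difference of -0.10 (95% confidence interval -0.29 to 0.10). Its other probe sets were at 0.09 and -0.19, so the direction was not shared. Gria4 measured 8.88, 8.91 and 8.98 in sham and 9.04, 8.58 and 8.91 in TAC (1435722_at), again with TAC B lowest, and differed by -0.08 (95% confidence interval -0.39 to 0.23). Its other probe set was at 0.13. Gria3 varied widely within the sham group, at 8.52, 7.61 and 7.97, while the TAC arrays held 8.18, 8.01 and 8.13 (1434728_at). Its difference of 0.07 became -0.13 without sham B and 0.32 without sham A.

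Kainate receptors are built from the core subunits Grik1 to Grik3, which form channels alone, and from Grik4 and Grik5, which need a core partner and raise the affinity for glutamate. Above the floor were the core subunits Grik2 and Grik3 and the partner Grik5. Grik2 measured 6.56, 6.64 and 6.47 in sham and 6.44, 6.31 and 6.43 in TAC (1457683_at), with a small gap between the groups. The means were 6.55 ± 0.09 and 6.39 ± 0.07 (SD, n = 3), and the difference of -0.16 had a 95% confidence interval of -0.36 to 0.04 (limma adjusted p = 0.578). It was -0.23 to -0.10 over the 17 alternatives. Its unadjusted p was 0.103, and an exact two-sided permutation test of 3 arrays against 3 cannot give a p below 0.1.

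Grik3 measured 7.74, 7.62 and 7.97 in sham and 7.61, 7.79 and 7.65 in TAC (1440177_at), with overlapping groups and a difference of -0.10 (95% confidence interval -0.37 to 0.18). Grik5 measured 7.54, 6.66 and 7.45 in sham and 7.41, 7.29 and 7.95 in TAC (1418784_at). Sham B was the low array and TAC C the high one. The difference of 0.33 had the widest interval of the 13 genes, -0.34 to 1.01 (limma adjusted p = 0.691), and it was 0.06 without sham B and 0.13 without TAC C.

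Glrb, the beta subunit that anchors glycine receptors to the scaffold protein gephyrin, was the 1 glycine receptor gene above the floor. It measured 10.15, 9.86 and 9.95 in sham and 10.11, 10.26 and 10.18 in TAC (1422504_at). Sham A lay inside the TAC range, and the other sham arrays lay below it. The means were 9.98 ± 0.15 in sham and 10.18 ± 0.07 in TAC (SD, n = 3), a difference of 0.20 with a 95% confidence interval of -0.04 to 0.44, and this was the smallest p of the 13 genes (limma unadjusted p = 0.0916, adjusted p = 0.567). The second Glrb probe set (1459850_x_at) was at -0.07, with 9.80, 9.64 and 9.67 in sham and 9.64, 9.63 and 9.64 in TAC, so the probe sets did not share a direction. Gephyrin itself (Gphn), which also clusters GABA-A receptors, was at 0.30 (95% confidence interval -0.10 to 0.71), with sham B at 7.31 the lowest array. The Gphn difference was 0.12 without sham B and 0.44 without sham A.

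The 5-HT3 receptor subunits both had higher means after TAC, within the spread of the arrays. Htr3a, which can form a channel alone, measured 10.45, 10.78 and 10.49 in sham and 10.66, 10.69 and 11.04 in TAC (1418268_at). Sham B lay above TAC A and TAC B, and TAC C was the highest array. The difference was 0.22, with a 95% confidence interval of -0.13 to 0.57 (limma adjusted p = 0.636), and it was 0.10 without TAC C. Htr3b, which needs Htr3a to reach the surface and raises the conductance of the channel, measured 8.29, 8.41 and 7.73 in sham and 8.39, 8.25 and 8.63 in TAC (1421652_at). The difference was 0.28, with a 95% confidence interval of -0.21 to 0.77 (limma adjusted p = 0.657), and it was 0.07 without sham C.

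Array weights gave TAC C a weight of 2.18, sham C 1.73 and TAC B 0.44. TAC C was the highest array for both 5-HT3 genes, and sham C the lowest for Htr3b. With these weights both genes had a limma unadjusted p under 0.05, at differences of 0.35 and 0.51, and an adjusted p of at least 0.355. The share of all probe sets under that p with array weights is not given here. The summed level of the 14 sympathetic neuron markers measured lay between 105933 and 116524 in sham and between 120660 and 125234 in TAC, with all 14 above the floor. The list did not move one way: 8 of its genes had higher and 6 lower means, with a median of 0.02, from Npy at 0.77 to Chrnb4 at -0.14. The higher sum after TAC rested largely on Npy, at 13.61 to 13.87 in sham and 14.38 to 14.65 in TAC. The part of the sum in the 5-HT3 values was not tested.

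Of the P2X receptors, P2rx2 is the subunit of slowly desensitizing ATP currents in autonomic neurons, P2rx4 is found in neurons and immune cells, and P2rx7 is known from macrophages and glia. P2rx4 was the gene closest to no difference, at 7.38, 7.21 and 7.26 in sham and 7.21, 7.28 and 7.38 in TAC (1425525_a_at). Its difference was 0.01, with a 95% confidence interval of -0.20 to 0.21, a TAC over sham ratio of 0.869 to 1.16. The second P2rx4 probe set was at 0.11 (1452527_a_at).

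P2rx2 measured 4.58, 4.79 and 5.12 in sham and 4.60, 4.31 and 4.96 in TAC (1435212_at), near the floor, with a difference of -0.20 (95% confidence interval -0.70 to 0.29). P2rx7 measured 4.71, 4.97 and 4.90 in sham and 5.26, 5.20 and 4.57 in TAC (1439787_at), so that TAC C lay below every sham array and the other TAC arrays above them. The difference was 0.15 (95% confidence interval -0.32 to 0.63, limma adjusted p = 0.796), and without TAC C it was 0.37 (limma unadjusted p = 0.0196, adjusted p = 0.707). With each array left out in turn it lay between 0.03 and 0.37. The share of all probe sets at an unadjusted p under 0.05 without TAC C is not given here. A second P2rx7 probe set (1419853_a_at), under the floor, lay the other way, at 3.91, 4.02 and 3.75 in sham and 3.53, 3.52 and 3.49 in TAC. Its difference was -0.38 with no overlap. Of all dim probe sets of the array, 71.6% were lower after TAC without overlap, and their median difference was -0.04. The 13 macrophage markers measured had sums between 1351 and 1512 in sham and between 1324 and 1494 in TAC, with Aif1, Cd68 and Itgam dim. The other 10 did not move one way: 5 had higher and 5 lower means, from Ptprc at 0.96 to Cx3cr1 at -0.23. Over the 13 genes above the floor, the lowest array was sham B for 4 and TAC B for 4.

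**Figure D3:**
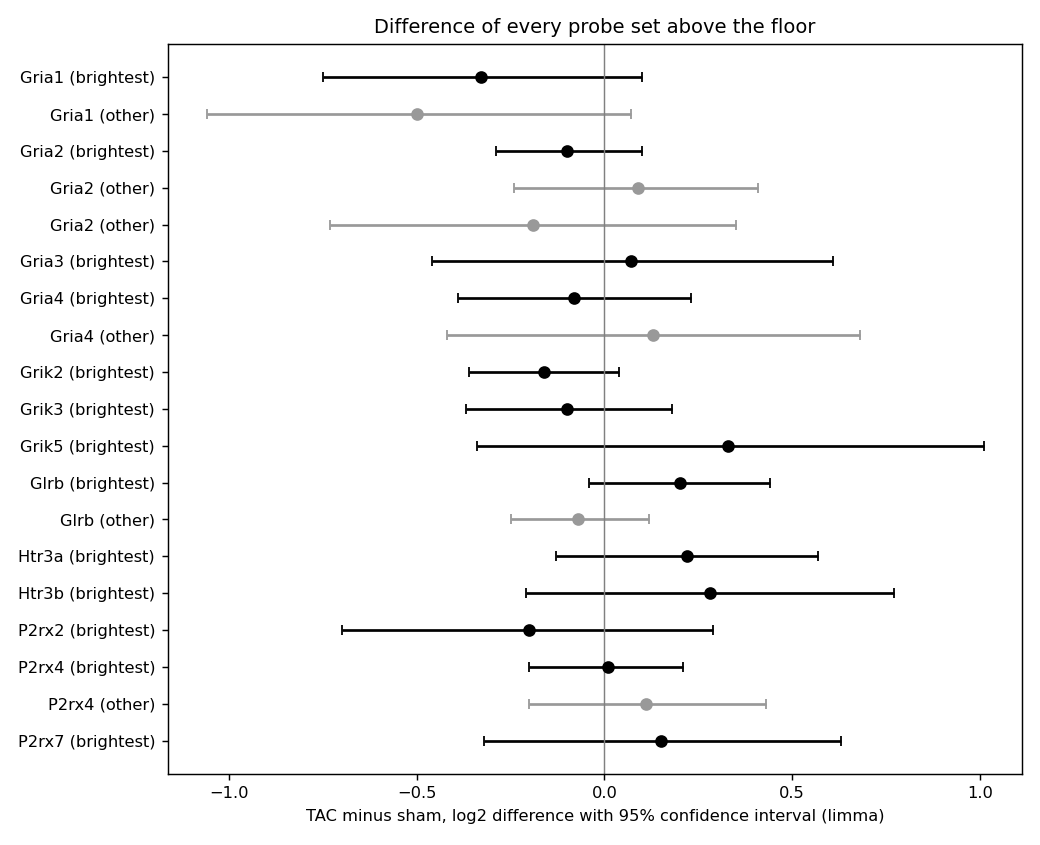
TAC minus sham log2 difference (horizontal axis) with its 95% confidence interval from limma for each of the 19 probe sets above the floor, the brightest of each gene in black and others in grey. Every interval includes 0, from -0.33 for Gria1 to 0.33 for Grik5 among the brightest, and the probe sets of Glrb, Gria2 and Gria4 lie on both sides of 0.

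The dim members shifted together by a small amount. Of the 31 dim genes, 29 had a lower mean after TAC, 25 of them with groups that did not overlap (80.6%), and the median difference was -0.05. The same was measured over all 27487 dim probe sets of the array, of which 87.0% had a lower mean after TAC and 71.6% were lower without overlap, with a median of -0.04. Fitted with no floor, limma called 0 of the 44 genes, with 12 lower and 0 higher at an unadjusted p under 0.05, 11 of the 12 being dim genes. Of all dim probe sets, 20.0% were lower at that p.

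The proteins that make, move, anchor or remove these transmitters and receptors were followed in 5 lists of 101 genes in all. Of 88 measured, 40 were above the floor, and limma called 0 of them (lowest adjusted p = 0.512). At an unadjusted p under 0.05 there were 4 higher (10%, against 6.03% of all probe sets) and 2 lower (5%, against 3.05%). Genes for making GABA or loading GABA, glutamate or ATP into vesicles were dim: the GABA-synthesizing enzymes Gad1 and Gad2, the vesicular GABA transporter Slc32a1, the vesicular glutamate transporters Slc17a6 and Slc17a7 and the vesicular ATP transporter Slc17a9.

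Of 12 GABA companions above the floor, 7 had higher and 5 lower means, with a median of 0.04. Dbi, the diazepam binding inhibitor that acts on GABA-A receptors and binds acyl-CoA, measured 13.55 on all 3 sham arrays and 13.35, 13.17 and 13.35 in TAC, a difference of -0.26 (95% confidence interval -0.46 to -0.07, limma adjusted p = 0.518). On all 4 of its probe sets the TAC arrays lay below the sham arrays. Dbi is abundant in glia, and its lowest array was TAC B, where the satellite glia sum, though not each of its markers, was lowest too. The sums of mural cell and endothelium markers were highest on that array, though the mural marker Cspg4 was lowest there. The part of any of these cell types in the Dbi values was not tested. Nlgn2, an adhesion protein of inhibitory synapses, was at 0.14 (95% confidence interval -0.07 to 0.34).

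Of 17 glutamate companions above the floor, 10 had higher and 7 lower means, with a median of 0.03. Cacng5, a TARP, one of the transmembrane proteins that bind AMPA receptors and change their trafficking and gating, measured 6.45, 6.47 and 6.55 in sham and 7.13, 6.93 and 7.04 in TAC. All TAC arrays lay above all sham arrays, and the difference of 0.54 had a 95% confidence interval of 0.34 to 0.74 (limma unadjusted p = 0.000525, adjusted p = 0.512). It was 0.47 to 0.62 over 17 alternatives, and its second probe set was dim. Cacng4, another TARP, lay the other way, at 5.78, 5.10 and 5.43 in sham and 4.75, 4.81 and 5.05 in TAC. The groups did not overlap, the difference was -0.57 (95% confidence interval -1.01 to -0.13, limma adjusted p = 0.540), and a second probe set was at -0.22 with overlapping groups.

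Dlg4, which encodes the postsynaptic scaffold PSD-95, measured 5.91, 5.61 and 5.37 in sham and 6.31, 5.97 and 6.31 in TAC. The groups did not overlap, with a difference of 0.56 (95% confidence interval 0.17 to 0.96, limma adjusted p = 0.516). Its other probe sets, at 0.35 with overlapping groups and at -0.03, were dim. None of Cacng5, Cacng4 and Dlg4 passed over all probe sets, so they rank the list and are not calls.

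Of 6 purine companions, 3 were higher and 3 lower, with a median of -0.04. Entpd3, an ectoenzyme that breaks down extracellular ATP, measured 8.86, 8.98 and 8.86 in sham and 9.28, 9.37 and 9.63 in TAC. The groups did not overlap, and the difference of 0.52, or 1.44-fold, had a 95% confidence interval of 0.26 to 0.79 (limma unadjusted p = 0.00269, adjusted p = 0.512). It was 0.42 to 0.61 over 17 alternatives. The channel gene Panx2 was at -0.20 and the receptor gene P2ry14 at 0.15, and with 1 array left out they lay between -0.38 and -0.10 and between 0.04 and 0.21.

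Among 3 glycine companions, Shmt2, the mitochondrial enzyme that makes glycine from serine, measured 7.53, 7.25 and 7.30 in sham and 7.95, 7.85 and 7.82 in TAC, a difference of 0.51 (95% confidence interval 0.27 to 0.75, limma adjusted p = 0.512). Its other probe sets above the floor were at 0.01 and 0.31. The glycine transporter Slc6a9 was at 0.12 and the glycine cleavage gene Gcsh at -0.13, or between -0.21 and -0.06 with 1 array left out. Of 16 serotonin companions fixed, 2 were above the floor: the serotonin transporter Slc6a4 at 0.37 (95% confidence interval -0.13 to 0.86) and the receptor chaperone Ric3 at 0.22, whose second probe set was at -0.19. Slc6a4 was at 0.14 without sham B and 0.54 without sham A, and Ric3 between 0.04 and 0.43 with 1 array left out.

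**Figure D4:**
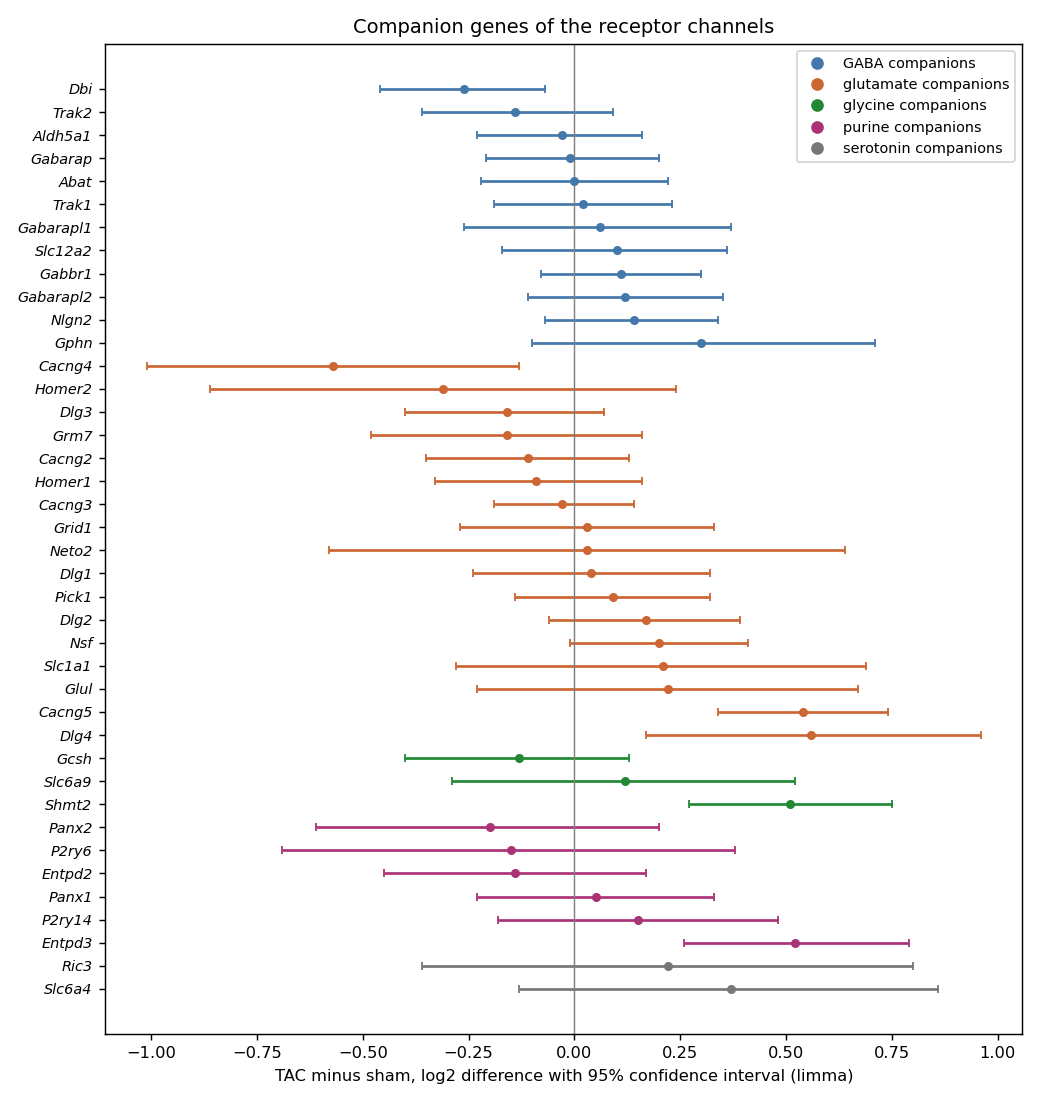
TAC minus sham log2 difference (horizontal axis) with its 95% confidence interval from limma for the 40 companion genes above the floor, coloured by list and ordered by difference within a list. The intervals of Cacng5, Dlg4, Shmt2 and Entpd3 lie above 0 and those of Cacng4 and Dbi below it, and none of the 40 passed after adjustment over all probe sets.

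The tissue label was checked against fixed marker lists. All 14 sympathetic neuron markers measured were above the floor, among them Th at 13.55 to 13.88, and of 6 sensory neuron markers measured, Pou4f1, Scn10a, Scn11a, Tac1 and Trpv1 were dim while Avil was above the floor, at 11.97 to 12.17. Skeletal muscle transcripts varied between arrays of the same group, with a summed linear intensity between 99.7 and 1840 in sham and between 118 and 323 in TAC, as did brown fat transcripts, highest on sham C and TAC B. Leaving out sham C and TAC B moved the P2rx2 difference to 0.10 and that of Grik5 to 0.58, and 0 of the 13 genes were called.

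**Figure D5:**
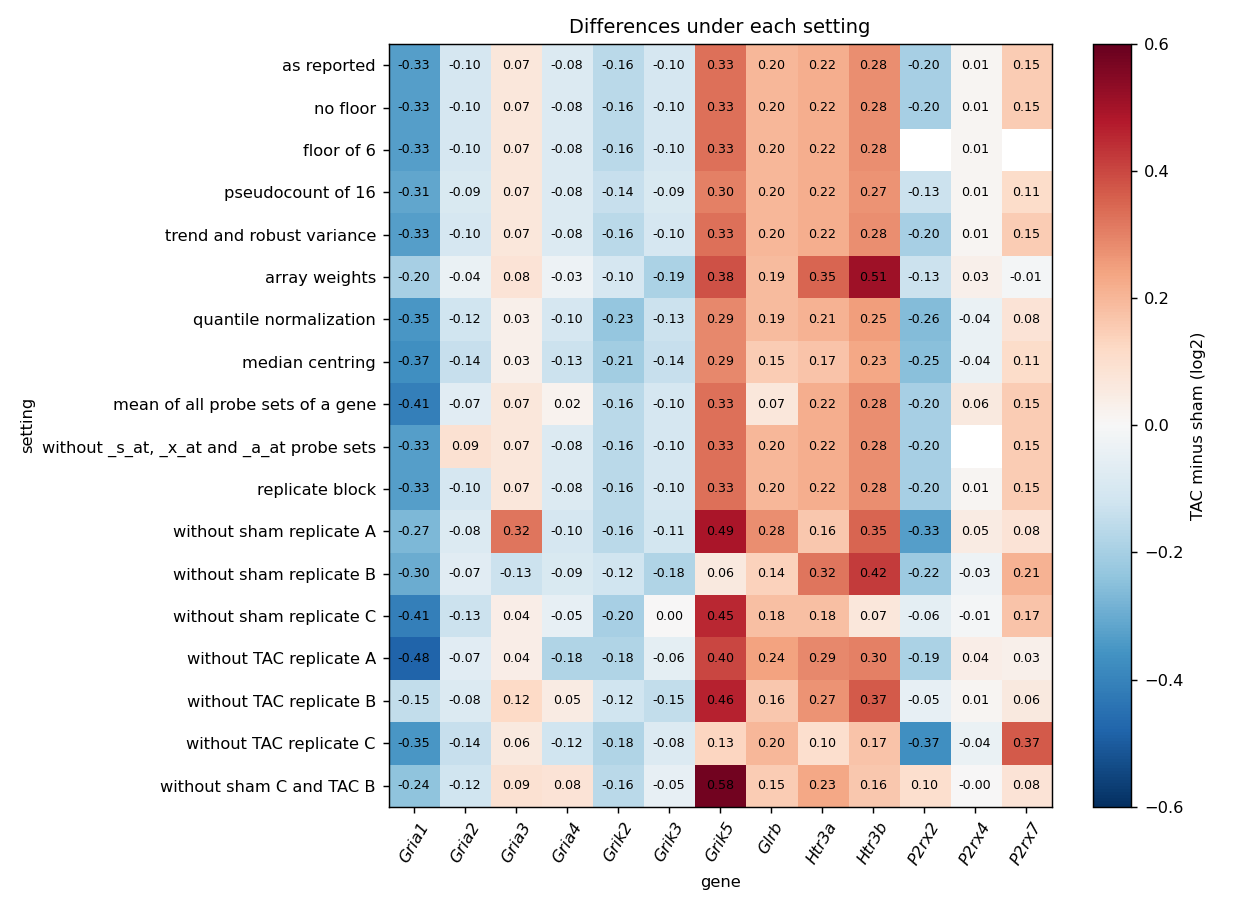
TAC minus sham log2 difference of the 13 genes above the floor (columns) under the reported setting and 17 alternatives (rows), red for higher and blue for lower, with an empty cell where the gene had no value. Gria1, Grik2, Grik5, Glrb, Htr3a and Htr3b kept their sign in every row, and P2rx4 changed sign in 6. Rows that changed only the floor, the variance model or the block cannot move a difference.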

How the data were processed

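RNA from 3 sham and 3 TAC animals was measured on 6 Affymetrix mouse genome arrays. Each deposited value is the linear intensity of a probe set; the submitters' processing notes name GCRMA, with no version. The log2 of these values was taken without adding a pseudocount or normalizing again. The 64 control probe sets were left out, as were 27487 with a mean log2 intensity under 4, because GCRMA gives no detection call, which left 17550. Symbols came from GEO's platform annotation, and 1 probe set shared by a member and another gene was left out. Each gene stands by its brightest probe set.

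TAC and sham were compared with limma 3.58.1 (R 4.3.3; lmFit and eBayes, two-sided, Benjamini-Hochberg over all kept probe sets, threshold 0.05), and the procedure was tested on simulated data. The members and lists were chosen with earlier results of these data known. By rule, values on every array were due for members with an unadjusted p under 0.05 or groups that did not overlap, which only Grik2 met, and they are given for all 13. Up to 3 companions of smallest p per list were named; others are named for their function. The title letters were not treated as pairs. Deviations of same-letter arrays correlated at 0.08, -0.00 and -0.17, and those of different letters at -0.13 to 0.14. With 3 arrays in a group these values cannot settle whether the letters mark pairs. Precision is limited by the small number of arrays. The 17 alternatives changed the floor, pseudocount, variance model, array weights, normalization, choice of probe set, block or arrays used. Figures were drawn with matplotlib 3.10.9.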

Additional observations from a re-analysis of the deposited data

How the results depend on the processing

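Over 17 alternatives limma called 0 of the members each time. Of 448 values of single genes under an alternative, 432 kept their direction and 16 changed sign. The cause was not tested. Alternatives that changed only the floor, the variance model or the block cannot move the difference of a gene. Those that changed the choice of probe set cannot move it for a gene with 1 probe set above the floor. Kept directions under such alternatives were fixed in advance and do not add to the stability of a gene's direction. The sign changed for Gria2 without probe sets that may read several transcripts (0.09), for Gria3 without sham B (-0.13, range over arrays left out -0.13 to 0.32), for Gria4 with the mean of all probe sets (0.02), without TAC B (0.05; range -0.18 to 0.05) and with both sham C and TAC B left out (0.08), and for Grik3 without sham C (0.00; range -0.18 to 0.00). It changed for P2rx2 without sham C and TAC B (0.10), for P2rx7 with array weights (-0.01), for Slc6a9 when TAC B was left out (-0.04; range -0.04 to 0.22) and when sham C was left out with it (-0.16), and for P2rx4 with quantile normalization and median centring (-0.04 each), without sham C and TAC B (-0.00) and with 1 array left out (-0.04 to 0.05). The median of the members was 0.08 both without the ambiguous probe sets and with sham C and TAC B left out, and -0.07 to 0.05 with 1 array left out. At an unadjusted p under 0.05, 2 members were higher with array weights and 0 to 1 with 1 array left out; 12 were lower with no floor, through the dim genes that then enter (20.0% of all dim probe sets were lower at that p), 1 with quantile normalization (Grik2) and 0 to 1 with 1 array left out. Without overlap, 0 to 2 were higher and 1 to 3 lower with 1 array left out, where smaller groups overlap less. With no floor 26 were lower without overlap, as were 71.6% of all dim probe sets, and without sham C and TAC B 3 were. Apart from these dim shares, the share of all probe sets under the same alternative is not given. The counts are therefore not set against a background and show nothing particular to the members. With the replicate block the median was 0.01 and 0 members were called. A floor of 6 left no value for P2rx2 and P2rx7.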

Other observations

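Besides the channels, receptors of the same transmitters that act through G proteins were read from the companion lists, as a class and not by their change. Gabbr1, a GABA-B receptor subunit, measured 9.90, 10.04 and 9.93 in sham and 10.01, 10.08 and 10.10 in TAC, above the floor on every array, while all 15 GABA-A channel genes measured were dim. Of 6 metabotropic glutamate receptor genes measured, Grm7 was above the floor, at 9.32 to 9.49 in sham and 8.99 to 9.40 in TAC, with TAC B lowest, and the other 5 were dim. Of 7 P2Y receptor genes, P2ry6 and P2ry14 were above it. All 11 serotonin receptor genes of this kind measured were dim, at 1.99 to 3.84 on single arrays, while both 5-HT3 channel genes were above the floor. Of the 6 TARP genes measured, Cacng2, Cacng3, Cacng4 and Cacng5 were above the floor, and Cacng4 and Cacng5 were the pair named above for opposite directions. A difference between those 2 was not tested. Cacng3 measured 4.85, 4.86 and 4.87 in sham and 4.83 on every TAC array. It varied as little as the dim probe sets, whose median SD was 0.03 in sham and 0.01 in TAC. Its place above the floor therefore does not show that it was expressed.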
